A study of Mus musculus with 227 samples.

Results

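THY+ progenitor cells were compared with mSSC, the mouse skeletal stem cell population, in single-cell RNA profiles of the newborn mouse skeleton. The comparison holds the 43 THY+ and 37 mSSC cells with at least 1000 genes at an FPKM of at least 1 (sequenced fragments of a gene, scaled to its transcript length and to the library's mapped fragments), which are 80 of the 227 cells of the series. That minimum kept 43 of 72 THY+ and 37 of 37 mSSC cells. The THY+ cell just below it had 978 genes, the lowest THY+ cell kept had 1202, and the lowest mSSC cell had 1164.

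All cells came from long bones (tissue label bone and bone marrow) of BL6 mice at postnatal day 3, with no treatment and no transgene named. They were double-sorted by flow cytometry, and both gates required absence of CD45, Ter-119 and Tie2 (markers of blood and endothelial cells) and presence of AlphaV integrin. THY+ cells were also gated as Thy+6C3-CD105+, and mSSC as Thy-6C3-CD105-CD200+. Cells were captured on the Fluidigm C1 chip, and polyadenylated RNA was amplified with SMARTer chemistry together with ERCC spike-in RNA. The other populations of the series, CSP and 6C3+, appear below only as values beside the comparison.

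Cartilage and the fibrous tissues around bone are built from different matrices. Chondrocytes, under the transcription factor Sox9, make type II, IX and XI collagen, the proteoglycan aggrecan and a set of small cartilage proteins. Fibroblasts of periosteum, perichondrium and tendon make type I, III, V and VI collagen with periostin and other matricellular proteins, and pericytes, the contractile cells around small vessels, make type IV collagen of the basement membrane.

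Each library is 1 cell and no animal or culture is named, so each population is 1 sample, without a replicate check, and no p-value can be given. Differences are THY+ minus mSSC in mean log2(FPKM + 1), a scale that understates changes of low genes, and a difference of at least 2 (4-fold on that scale) is called higher or lower. SDs are between cells. Shares of cells at an FPKM of at least 1 ("detected") carry exact Clopper-Pearson 95% intervals for counting error alone, and a gene listed at 0 in a cell is not shown to be absent from it.

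Detected genes per cell ranged from 1202 to 5786 (median 2835) in THY+ and from 1164 to 4390 (median 2534) in mSSC. Spike-ins took 0.408% to 87.7% of FPKM (median 20.8%) in THY+ cells and at most 0.0276% in mSSC cells. The populations shared 0 index pairs and 0 index rows (libraries with the same S5 index), although both used the same 12 N7 indices, so the index row and the population cannot be told apart. Some libraries stood apart. The 9 THY+ cells of the first index row had 0.408% to 1.36% of FPKM in spike-ins, against 1.62% or more in every other THY+ cell kept, and 3 of the 4 mSSC cells of the third index row held few cartilage transcripts. Many lists whose counts or direction moved between the first THY+ index row (9 cells) and the other 34 cells carry both values. A list given without both values can still have moved. Because FPKM totals differed between cells (median endogenous total 752614 in THY+ and 906237 in mSSC), each difference was also computed after scaling every cell to an endogenous total of 1000000, here called rescaled.

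Among the 8142 genes found in 10% or more of these 80 cells, 152 (1.87%) were higher in THY+ and 243 (2.98%) lower. After rescaling, 214 (2.63%) were higher and 215 (2.64%) lower, which moved the share of higher among called genes from 38.5% to 49.9%, and 152 higher and 211 lower genes were called on both scales. The median difference over all genes was 0.12 as deposited and 0.22 rescaled. The share of cells was at least 50 percentage points higher in THY+ for 22 genes (0.27%) and in mSSC for 19 (0.233%). With the THY+ cells of the first index row alone, 837 genes were higher and 116 lower of 7632 found in 10% of the cells used. With the other 34 THY+ cells these counts were 138 and 352 of 7489. List counts given below for the first row stand beside its larger share of higher genes.

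Genes of the cartilage matrix made up most of the 15 largest differences toward mSSC. Lect1 (Cnmd, chr14:79637690-79662170, minus strand of mm10), which encodes chondromodulin, an inhibitor of vessel growth in cartilage, ranged from 0 to 12870 FPKM in THY+ cells with a median of 0, and from 0 to 37780 in mSSC with a median of 11046. The difference was -9.91 (SD 3.995 in THY+ and 4.43 in mSSC), with detection in 16 of 43 THY+ cells (37.2%, 22.98 to 53.3) and 33 of 37 mSSC cells (89.2%, 74.6 to 97.0). Most THY+ cells were thus at 0, but the ranges of both populations overlapped at either end. Ucma, a secreted cartilage matrix protein that carries gamma-carboxyglutamate, had a median of 0 (highest 8937) in THY+ and of 6697 (highest 44464) in mSSC, a difference of -9.50, and was detected in 8 of 43 and 33 of 37 cells.

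The cartilage collagens were the most uniform list: 7 of 7 genes were lower, with a median difference of -6.92 as deposited and -6.73 rescaled. Col2a1 (chr15:97975602-98004695, minus strand), the main collagen of cartilage, ranged from 0 to 29901 FPKM (median 7.66) in THY+ and from 0 to 80221 (median 22488) in mSSC, a difference of -7.78 (SD 5.27 and 4.35). It was still detected in 30 of 43 THY+ cells (69.8%, 53.9 to 82.8), against 35 of 37 mSSC cells (94.6%, 81.8 to 99.3). At 1000 FPKM or more it was found in 12 THY+ and 33 mSSC cells, so the gap in shares of cells depended on the limit used. The chains of type IX collagen, which sits on the surface of type II fibrils, differed by -8.96 (Col9a2), -8.17 (Col9a1) and -6.92 (Col9a3), with THY+ medians of 0 and mSSC medians of 8007, 2941 and 1069 FPKM. Col11a1 (-5.02), Col11a2 (-5.12) and Col27a1 (-2.74), which encode minor fibrillar chains of cartilage, had smaller differences.

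Of 16 cartilage proteoglycans, matrilins and small matrix proteins, 14 were lower and none higher (median -5.84, rescaled -5.65). The exceptions were Matn4 (-0.09) and Otor (-0.67), each detected in fewer than 20% of the cells of either population. Chad, a leucine-rich protein that binds chondrocytes to collagen, differed by -8.49, Mia, a small protein secreted by chondrocytes, by -8.29, and Cytl1, a secreted chondrocyte factor, by -6.55. Matn1, a matrilin of mature cartilage, reached 1.96 FPKM in the highest THY+ cell and 7016 in the highest mSSC cell. It was detected in 2 of 43 THY+ cells (4.65%, 0.568 to 15.8) and 25 of 37 mSSC cells (67.6%, 50.2 to 81.99), with a difference of -6.53. Matn3 (-6.50), Hapln1, the link protein that ties aggrecan to hyaluronan (-5.17), Comp (-4.43) and Acan, aggrecan itself (-4.32), were lower as well, and Acan was detected in 25 of 43 against 36 of 37 cells.

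**Figure D1:**
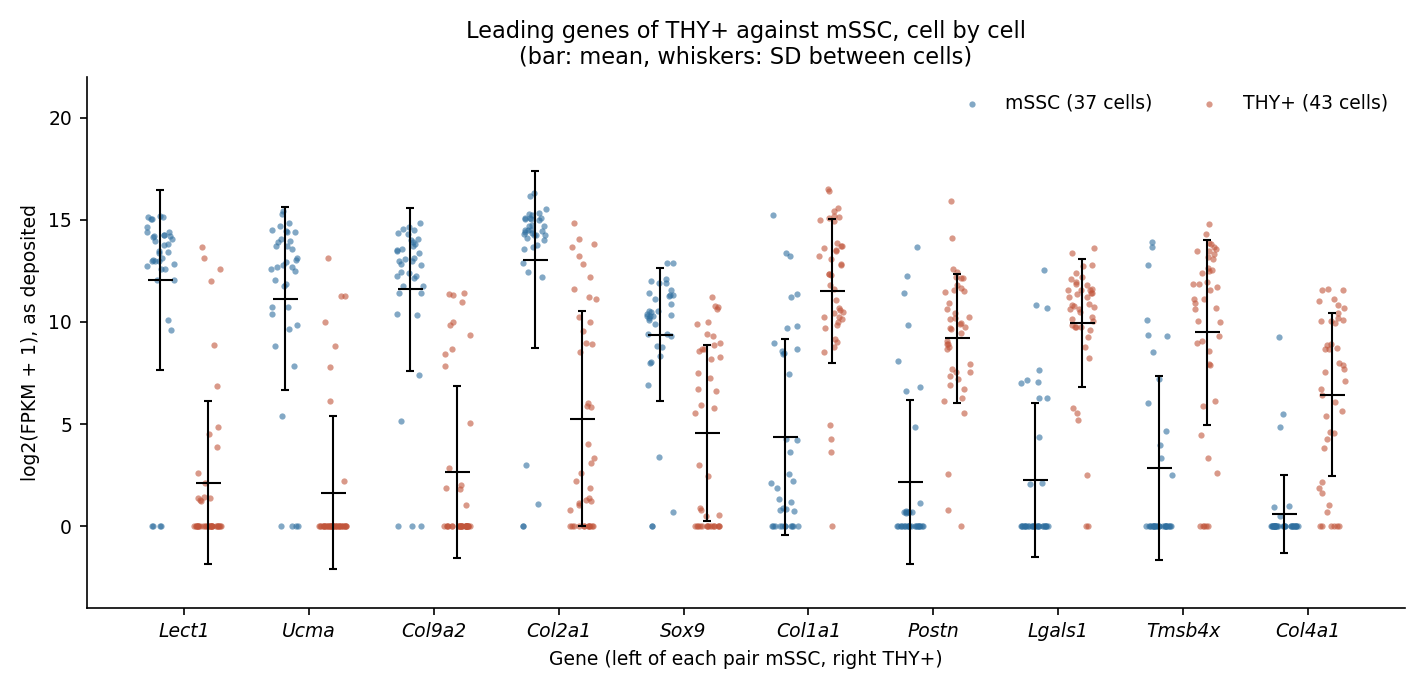
Value of log2(FPKM + 1) in each cell (y axis) for 10 leading genes (x axis), with 37 mSSC cells left and 43 THY+ cells right in each pair; the bar is the mean and the whiskers the SD between cells, which can reach below 0. Lect1, Ucma and Col9a2 sit near 0 in most THY+ cells and high in most mSSC cells, Col1a1, Postn, Lgals1, Tmsb4x and Col4a1 the other way, and every pair has cells of both populations at low and high values.

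Other leading genes toward mSSC lay outside these lists. Scrg1, first described as a transcript raised in scrapie and also made by chondrocytes, differed by -7.61 and was detected in 11 of 43 and 32 of 37 cells. Clec3a, a C-type lectin of cartilage, differed by -5.75. Sdc4, a cell surface heparan sulfate proteoglycan, was detected in all 37 mSSC cells (42.8 to 25840 FPKM, median 5944) and in 33 of 43 THY+ cells (0 to 5734, median 161), a difference of -5.63.

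Among 14 chondrocyte regulators, 5 were lower and 0 higher. Sox9, the master transcription factor of cartilage, ranged from 0 to 2378 FPKM (median 45.1) in THY+ and from 0 to 7598 (median 1270) in mSSC, a difference of -4.83 (SD 4.32 and 3.28), and was detected in 24 of 43 (55.8%, 39.9 to 70.9) and 34 of 37 cells (91.9%, 78.1 to 98.3). Wwp2, the ubiquitin ligase gene that hosts a cartilage microRNA, differed by -4.02, Foxa3 by -2.72, Fgfr3, the receptor that restrains growth plate chondrocytes, by -2.50, and Sox6, a partner of Sox9, by -2.42. Foxa3 was detected in 2 of 43 THY+ and 17 of 37 mSSC cells. Trps1 (0.25) and Pth1r (-0.25) were detected in shares of cells with overlapping intervals. Neither the hypertrophic chondrocyte list (4 genes) nor the osteoblast list (15 genes) had a gene past the rule. Just 1 of the hypertrophic and 4 of the osteoblast genes were found in enough cells to be counted, so few could pass. These lists therefore cannot show that the populations are alike in such genes. The type X collagen gene Col10a1, a mark of hypertrophy, reached 1 FPKM in 0 of 43 and 3 of 37 cells, and Bglap, Bglap2, Phex and Mepe, made by mature osteoblasts and osteocytes, were listed at 0 in all 80 cells.

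The enzymes that build the sugar chains of cartilage proteoglycans were partly lower. Papss2, which makes the sulfate donor, differed by -3.06, Csgalnact1, which starts chondroitin chains, by -2.61, Ugdh, which makes the glucuronate donor, by -2.29, and Chst11, a chondroitin sulfotransferase, by -2.12. These were 4 of the 16 genes of glycosaminoglycan synthesis, none was higher, and Chst11 was under the rule after rescaling (-1.83). The list's median was -0.68. With the first THY+ index row alone it had 1 gene higher and 1 lower, and with the other THY+ cells 0 and 5.

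Small leucine-rich proteoglycans, which coat collagen fibrils in cartilage and in fibrous tissue alike, were also lower, in 5 of 8 genes with none higher (median -2.33). Fmod, fibromodulin, differed by -4.04, Dcn, decorin, by -3.35, Prelp by -3.34, Lum, lumican, by -2.50 and Omd by -2.16. Dcn was detected in 19 of 43 THY+ cells (median 0 FPKM, highest 10575) and 26 of 37 mSSC cells (median 1059, highest 10090), so its highest cells were alike. The list moved with the THY+ index rows: with the first row alone 1 gene was higher and 1 lower (median -0.92), and with the other cells 0 and 5 (median -2.71). Kera, a proteoglycan of tendon and cornea, was detected in 11 of 43 against 1 of 37 cells, with a difference of 1.81.

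Among the lists, the fibrous collagens had the highest median difference toward THY+. Of 12 fibrillar and associated collagens of bone and fibrous tissue, 9 were higher and 0 lower (median 3.03, rescaled 3.57). Col1a1 (chr11:94936224-94953042, plus strand), which encodes the main chain of bone and tendon collagen, ranged from 0 to 91737 FPKM (median 4966) in THY+ and from 0 to 38184 (median 3.29) in mSSC. The difference was 7.16 (SD 3.51 and 4.80), with detection in 42 of 43 THY+ (97.7%, 87.7 to 99.9) and 22 of 37 mSSC cells (59.5%, 42.1 to 75.2). Col1a2, the second chain, was detected in 43 of 43 and 36 of 37 cells and differed by 2.55 (median 3668 against 783 FPKM). Col5a2 (3.72), Col6a3 (3.39), Col3a1 (3.31), Col6a2 (3.28), Col14a1 (3.21), Col5a1 (2.86) and Col5a3 (2.21) were higher too. Col6a1 (0.64), Col12a1 (0.30) and Col16a1 (0.13) were under the rule, and each was detected in most cells of both populations.

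Postn (periostin, a matricellular protein of periosteum and tendon) ranged from 0 to 62102 FPKM (median 837) in THY+ and from 0 to 13154 (median 0) in mSSC, a difference of 7.04 (SD 3.15 and 4.01), with detection in 41 of 43 (95.3%, 84.2 to 99.4) and 9 of 37 cells (24.3%, 11.8 to 41.2). Aspn, asporin, which binds collagen, differed by 4.88 (32 of 43 against 7 of 37 cells). Prrx1, a transcription factor of limb mesenchyme (2.57), and Pdgfra, a receptor of fibroblasts (2.50, 22 of 43 against 3 of 37 cells), completed the 4 of 12 fibroblast and periosteal genes that were higher, with 0 lower and a median of 1.27. Some markers of other fibroblast states were found in a minority of cells of both populations. Ly6a was detected in 3 of 43 and 0 of 37 cells, Pi16 in 1 of 43 and 0 of 37, and Dpt in 9 of 43 and 2 of 37. Cd34 was detected in 23.3% of THY+ and 2.70% of mSSC cells, with a difference of 1.47.

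Within the matricellular and elastic fibre list, 4 of 20 genes were higher and 2 lower. Thbs2 (3.71), Fbln2 (2.43) and the fibrillins Fbn1 (2.28) and Fbn2 (2.11) were higher, while Thbs1 (-4.05) and Cyr61 (-2.56), encoding secreted proteins that bind matrix and cells, were lower. Thrombospondin 1 and thrombospondin 2 genes therefore differed in opposite directions, on the deposited and on the rescaled scale. The first THY+ index row alone gave 11 higher and 1 lower in this list, the other THY+ cells 2 and 3, and all THY+ cells against mSSC without the third index row 7 and 2. Sparc, a collagen-binding protein, was detected in all 80 cells (median 3255 FPKM in THY+ and 9059 in mSSC, difference -1.54). Of 7 tendon genes, Tnmd, tenomodulin, which is related to Lect1 (3.01, 18 of 43 against 2 of 37 cells), and Thbs4 (2.13) were higher, and Scx, the transcription factor of tendon progenitors, was detected in 5 of 43 and 2 of 37 cells. The tendon list had 4 genes higher with the first THY+ row alone and 1 with the other cells. Of 10 articular surface genes Dkk3 (3.19) and Abi3bp (2.83) were higher, and Prg4, which encodes lubricin, differed by -1.47. None of the 10 marrow stroma genes passed the rule, although Kitl, the stem cell factor gene, was detected in 12 of 43 THY+ cells and 0 of 37 mSSC cells (1.94).

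**Figure D2:**
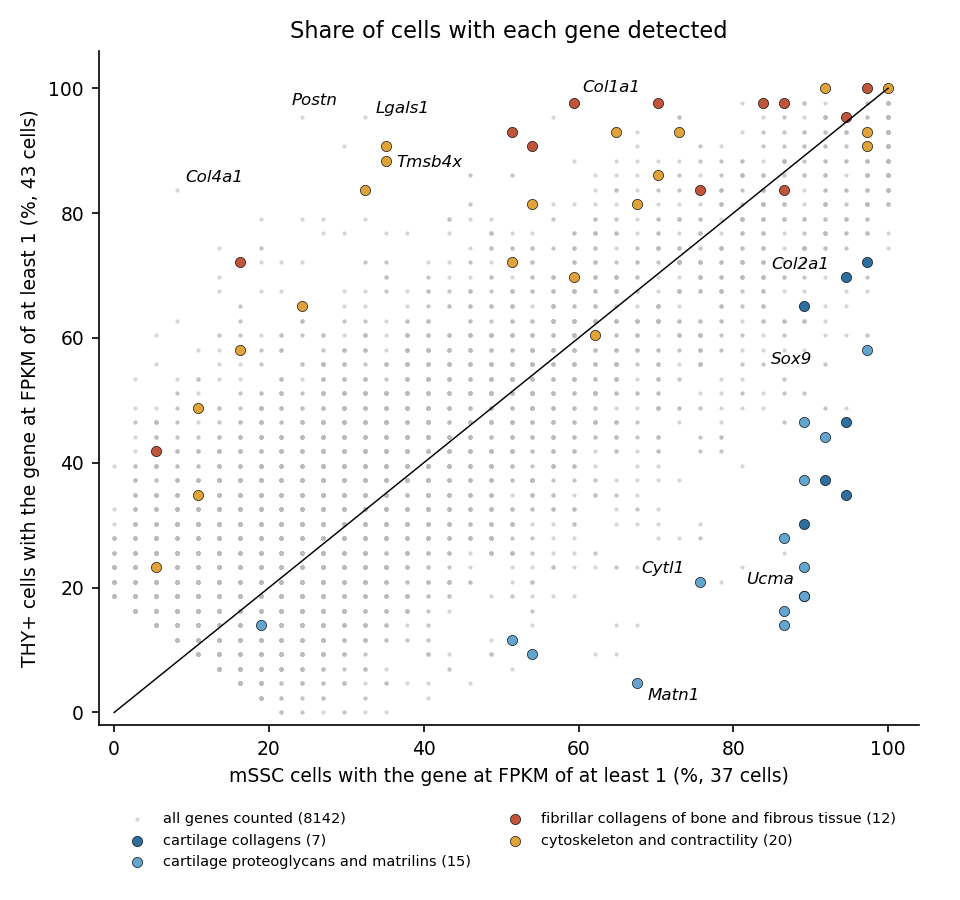
Share of mSSC cells (x axis, %, 37 cells) and of THY+ cells (y axis, %, 43 cells) with each of 8142 genes (grey) at an FPKM of at least 1; coloured points are the members of 4 gene lists and the line marks equal shares. Cartilage genes lie below the line, with Ucma at 89.2% and 18.6%, most fibrous collagens lie above it, with Col1a1 at 59.5% and 97.7% and Col12a1 just below the line at 86.5% and 83.7%, and Col4a1 stands near the upper left at 8.11% and 83.7%.

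Genes of the basement membrane had some of the widest gaps in detection. Col4a1, which with Col4a2 forms the type IV collagen of basement membranes, was detected in 36 of 43 THY+ cells (83.7%, 69.3 to 93.2) and 3 of 37 mSSC cells (8.11%, 1.70 to 21.9). Its median was 187 FPKM (highest 3078) in THY+ and 0 (highest 610) in mSSC, a difference of 5.83. Col4a2 differed by 4.33 and Col18a1 by 2.73, which made 3 of 13 basement membrane genes higher with 0 lower, and Hspg2, perlecan, which is abundant in cartilage as well, differed by -0.66. The first THY+ index row alone had 6 of the 13 higher and the other THY+ cells 3.

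On the pericyte and smooth muscle list, 6 of 12 genes were higher and 1 was lower (median 2.00, rescaled 2.03). The first THY+ index row alone gave 3 higher and 0 lower (median 1.61), and the other THY+ cells 8 and 1 (median 2.10). Rgs5, a regulator of G protein signalling in pericytes, was detected in 16 of 43 THY+ cells (37.2%, 22.98 to 53.3; highest 27738 FPKM) and 4 of 37 mSSC cells (10.8%, 3.03 to 25.4; highest 12557), a difference of 3.71. Pdgfrb, the receptor through which pericytes are recruited, differed by 3.12, Higd1b by 2.29, the potassium channel gene Kcnj8 by 2.26, Mcam by 2.21 and Acta2, smooth muscle actin, by 2.01. Cspg4, a proteoglycan of pericytes and of chondrocytes, was lower (-2.41). At least 6 of the 12 transcripts were detected in 13 of 43 THY+ cells and 1 of 37 mSSC cells. Leaving these cells out of both populations lowers this list by construction, since its own genes chose them: it then had 0 genes past the rule (median 0.13), with Rgs5 at 0.15 and Higd1b at 0. Among genes outside the list, Col4a1 then differed by 4.22, Col1a1 by 8.34 and Postn by 7.41. Smooth muscle genes of the list were not alike. Acta2 was detected in 34.9% of THY+ and 10.8% of mSSC cells. Myh11 was detected in 4 of 43 and 1 of 37 cells and Cnn1 in 0 of 43 and 1 of 37.

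Cytoskeletal genes were the second list with most members past the rule, 12 of 20 higher and 0 lower (median 2.09, rescaled 2.31). The first THY+ index row alone gave 14 higher and 0 lower (median 2.97), and the other THY+ cells 10 and 1 (median 1.95). Tmsb4x, thymosin beta 4, which holds actin monomers, ranged from 0 to 28751 FPKM (median 2239) in THY+ and from 0 to 15555 (median 0) in mSSC, a difference of 6.65, and was detected in 38 of 43 and 13 of 37 cells. Vim, the intermediate filament of mesenchymal cells, differed by 4.86 (median 4241 against 184 FPKM), Tagln2, transgelin 2, by 4.20, Flna, filamin A, by 3.26, Myl9, a myosin light chain, by 3.04, Tpm2 by 2.91, Tmsb10 by 2.81, Tpm4 by 2.76 and Cnn2, calponin 2, by 2.42. The general actin genes did not share the direction: Actb, detected in all 80 cells, differed by -0.64 (rescaled -0.13) and Actg1 by -1.68 (-1.38). Without the 13 THY+ cells and 1 mSSC cell rich in pericyte transcripts, 8 of 20 were higher and 1 lower, with a median of 1.12, so the size of this list moved with those cells, and their part in it was not tested.

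Many cytoskeletal genes carry the CArG box, the motif of serum response factor. It was searched on both strands of RefSeq promoters (GRCm38.p6, 250 bases before to 50 after the start), a search chosen with the results known, and stood in 4 of the 23 promoters (17.4%) of the 18 cytoskeletal genes matched. It stood in 126 of 8385 promoters (1.503%) of the genes counted and in 535 of 32851 promoters (1.63%) of the whole table. The 4 windows are shown, because they hold the box that the count rests on, with 60 bases read along the gene and the box in capitals.
Actg1: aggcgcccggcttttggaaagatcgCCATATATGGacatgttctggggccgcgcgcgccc
Cnn2: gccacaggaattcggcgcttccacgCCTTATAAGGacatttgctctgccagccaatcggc
Myl6: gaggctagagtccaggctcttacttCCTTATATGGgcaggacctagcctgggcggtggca
Myl9: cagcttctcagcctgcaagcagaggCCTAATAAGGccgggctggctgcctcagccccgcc
The Actg1 window lies at chr11:120348551-120348610 (minus strand, box 90 to 81 bases before the start), that of Cnn2 at chr10:79988519-79988578 (plus strand, 56 to 47), that of Myl6 at chr10:128493025-128493084 (minus strand, 50 to 41) and that of Myl9 at chr2:156775278-156775337 (plus strand, 161 to 152). These genes did not move as 1 group: Myl9 (3.04) and Cnn2 (2.42) were higher in THY+, and Myl6 (1.34) and Actg1 (-1.68) were under the rule. Over all promoters of the 152 higher genes the box stood in 5 of 151 (3.31%), and of the 243 lower genes in 5 of 238 (2.10%). Of the other motifs searched on both strands, the TATA box (TATAAA) stood in 8.70% of the cytoskeletal promoters and in 7.43% of those of the genes counted. The SOX motif (ACAAT) was in 17.4% of the former and 19.6% of the latter, and the GC box (GGGCGG) in 78.3% and 65.4%. A CArG box and a TATA box can share letters.

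Lgals1, which encodes galectin 1, a secreted lectin, had the largest difference of all genes named toward THY+. It ranged from 0 to 12380 FPKM (median 1766) in THY+ and from 0 to 5928 (median 0) in mSSC, a difference of 7.67 (SD 3.12 and 3.77), with detection in 41 of 43 (95.3%, 84.2 to 99.4) and 12 of 37 cells (32.4%, 18.01 to 49.8). Lgals3, galectin 3, differed the other way by -3.20 (12 of 43 against 28 of 37 cells). Among 16 membrane, caveolae and annexin genes 5 were higher and 1 lower: beside Lgals1 these were Cav1, caveolin 1 (5.23, 34 of 43 against 9 of 37 cells), Anxa1 (4.84), the hyaluronan receptor gene Cd44 (3.41) and Anxa6 (2.28), while Anxa2 (0.79) and Anxa5 (-0.81) were under the rule. Ptrf, the cavin that builds caveolae together with caveolin 1, was detected in 40 of 43 and 33 of 37 cells and differed by 0.46. The list's median was 0.79, and 0.33 with 4 higher and 1 lower without the cells of both populations rich in pericyte transcripts.

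Of the S100 calcium-binding proteins 4 of 8 were higher and 1 lower, with a median of 2.12, against 3 and 1 with a median of 1.19 without the cells rich in pericyte transcripts. S100a6 differed by 4.53 (median 1955 against 24.9 FPKM), S100a10 by 2.62, S100a4 by 2.41 and S100a11 by 2.28. S100b, which chondrocytes make under Sox9 and Schwann cells make as well, differed by -4.29 and was detected in 10 of 43 (23.3%, 11.8 to 38.6) and 30 of 37 cells (81.1%), while the other Schwann and neural genes were at or near 0. Crip1, a LIM domain protein (5.89), Marcks, an actin-binding substrate of protein kinase C (5.44), and Tppp3, a tubulin-binding protein known from tendon sheath cells (4.41), complete the 15 largest differences toward THY+. Tppp3 was detected in 29 of 43 and 7 of 37 cells.

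Few pathway genes passed the rule. In the BMP pathway (24 genes) the targets Id2 (-4.54), Id3 (-3.93) and Id1 (-3.77), inhibitors of basic helix-loop-helix factors, were lower and none was higher, while ligands, receptors and SMAD genes were under the rule, with Bmp2 at -1.24, Bmpr1a at -0.21 and Smad1 at -0.11. Id2 had a median of 12.95 FPKM (highest 6121) in THY+ and 523 (highest 14855) in mSSC. In the WNT pathway (24 genes) the secreted proteins Dkk3 (3.19) and Frzb, an antagonist first found in cartilage (-2.13), passed the rule. In the hedgehog pathway (13 genes) Gas1, a co-receptor (2.86, 35 of 43 against 17 of 37 cells), and the transcription factor gene Gli3 (2.25) were higher, and the targets Ptch1 (-0.18) and Gli1 (-0.72) were under the rule. In the TGF beta pathway (18 genes) Ltbp4, which binds latent TGF beta, was higher (2.55). With the first THY+ index row alone more genes of any kind were higher, 837 of 7632 against 138 of 7489 with the other THY+ cells. Beside that base, 6 TGF beta genes were higher and 0 lower (1 and 0 with the other cells). Of the hedgehog genes 4 were higher (2 with the others), and of the BMP genes 2 were higher and 1 lower (0 and 3). In that row 2 WNT genes were higher and 0 lower, against 1 and 1.

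Few genes of the FGF, PDGF, Notch and IGF lists passed the rule. Of 19 FGF and PDGF genes Pdgfrb and Pdgfra were higher, and Fgfr3 and Spry2, a feedback inhibitor of FGF signalling (-2.08, rescaled -1.93), were lower, with a median of 0 over the list. The first THY+ index row alone gave 4 higher and 0 lower, and the other THY+ cells 2 and 2. Of 12 Notch genes the ligand gene Jag1 was higher (3.42, 28 of 43 against 6 of 37 cells), and Notch3 (1.99, rescaled 2.04) lay at the rule. Of 12 IGF genes Igfbp5 (3.51), Igfbp4 (3.17) and Igf1 (2.00) were higher and Igf2 lower, against 4 higher and 0 lower in the first THY+ row alone and 2 and 1 in the others. Igf2, a fetal growth factor, was detected in all 37 mSSC cells (482 to 11698 FPKM, median 2793) and in 36 of 43 THY+ cells (0 to 5987, median 575), a difference of -3.75.

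Igf2 was not alone among imprinted genes that act on fetal growth: 7 of 12 were lower and none higher (median -2.24, rescaled -1.96, with 6 past the rule after rescaling). H19, the noncoding RNA next to Igf2, ranged from 37.1 to 23294 FPKM (median 5564) in mSSC and from 0 to 7718 (median 340) in THY+, a difference of -4.32. Cdkn1c, a cell cycle inhibitor (-3.51), Plagl1 (-2.99), Mest (-2.59), Peg3 (-2.46) and Mirg (-2.02) were lower, and Meg3 (-0.27, rescaled 0.24), Grb10 (-0.54) and Ndn (-0.43) were under the rule. With the 9 THY+ cells of the first index row alone the list's median was -0.61 with 1 gene lower, and with the other 34 it was -2.46 with 7 lower. Without the cells of both populations rich in pericyte transcripts 4 were lower (median -1.77).

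Some metabolic and secretory genes were lower in THY+, but several of these lists turned with the THY+ index row. Of 18 cholesterol and fatty acid genes 4 were lower, among them the feedback regulator Insig1 (-3.99) and the cholesterol synthesis enzyme genes Hmgcs1 (-2.96) and Fdps (-2.59), and 17 of 18 had a difference below 0. Of 21 glycolysis and hypoxia genes Eno1 (-4.26), Bnip3 (-3.19), Hk2 (-2.83), the glucose transporter gene Slc2a1 (-2.74) and Gapdh (-2.11, rescaled -1.98) were lower, and Vegfa (0.53) was under the rule. With the first THY+ index row alone this list had 3 genes higher and 0 lower (median 0.09), and with the other 34 cells 0 higher and 8 lower (median -0.97). None of 21 oxidative phosphorylation genes passed the rule over all cells kept (median 0.30). The first row alone gave 9 higher and 1 lower (median 1.94), the other cells none (median -0.05), and the 72 THY+ cells without the minimum 0 higher and 7 lower (median -1.64). Of 18 genes of collagen processing P4hb (-3.25), Fkbp10 (-2.29) and P4ha1 (-2.08, rescaled -1.92), which modify procollagen, were lower, and Pcolce, an enhancer of procollagen cleavage, was higher (2.72). This list turned as well, with 4 higher and 1 lower (median 1.12) in the first row alone and 1 and 3 (median -0.91) in the other cells. Mmp14, a membrane-bound collagenase (3.51), and Adamts2, which trims procollagen (2.14), were higher among 17 protease and inhibitor genes, and Timp1 was lower (-2.09, rescaled -1.79), with 8 higher and 1 lower in the first row alone and 2 and 1 in the others.

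Immediate early and dissociation stress genes were lower in 10 of 18, with none higher (median -2.12, and 8 lower with a median of -1.62 after rescaling). Atf3 (-4.33), Btg2 (-4.15), Dnajb1 (-3.59) and Ier2 (-3.13) differed most, Fos differed by -2.07 (rescaled -1.54), and Jun (-0.13) and Dusp1 (0.50) were under the rule. With the first THY+ index row alone the list had 1 higher and 4 lower and a median of -0.11; with the other 34 cells it had 0 higher and 11 lower and a median of -2.55. These genes move with cell handling as well as with cell type, and their part in other differences was not tested. Gapdh, Eef1a1 (-2.13) and B2m (2.14) of the 6 housekeeping genes were past the rule, of which B2m alone stayed past it after rescaling (1.69 without the first THY+ row), and 10 of 87 ribosomal protein genes were lower (median -1.44), with 0 higher.

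Lists without a difference past the rule over all cells kept included integrins (16 genes), proliferation (17, with Mki67 in 10 of 43 and 5 of 37 cells) and limb patterning (18). Of their genes 9, 12 and 10 were found in 10% or more of the cells. The endothelial (10), myeloid and lymphoid (11), erythroid (7 in the table), skeletal muscle (8), osteoclast (8) and adipocyte (8) lists had none past it either. Of their genes just 1, 0, 1, 2, 1 and 4 were found in 10% or more of the cells, so few or none could pass. Of regulators of the nuclear factor I and mesenchyme list (20), Meox2 was higher (2.60) and Klf4 lower (-2.57), against 5 higher and 1 lower with the first THY+ index row alone and 1 and 1 with the other cells. Of the lists named above, integrins and proliferation each had 1 gene higher in that row, where 837 of all 7632 genes counted were higher. Of the genes behind the sort markers, Thy1 was found in 9 of 43 THY+ and 0 of 37 mSSC cells, which allows a share of up to 9.49%. Cd200 (13 of 43 and 8 of 37) and Eng, which encodes CD105 (10 of 43 and 8 of 37), did not follow the gates that name them, and Itgav was detected in 26 of 43 and 24 of 37 cells.

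**Figure D3:**
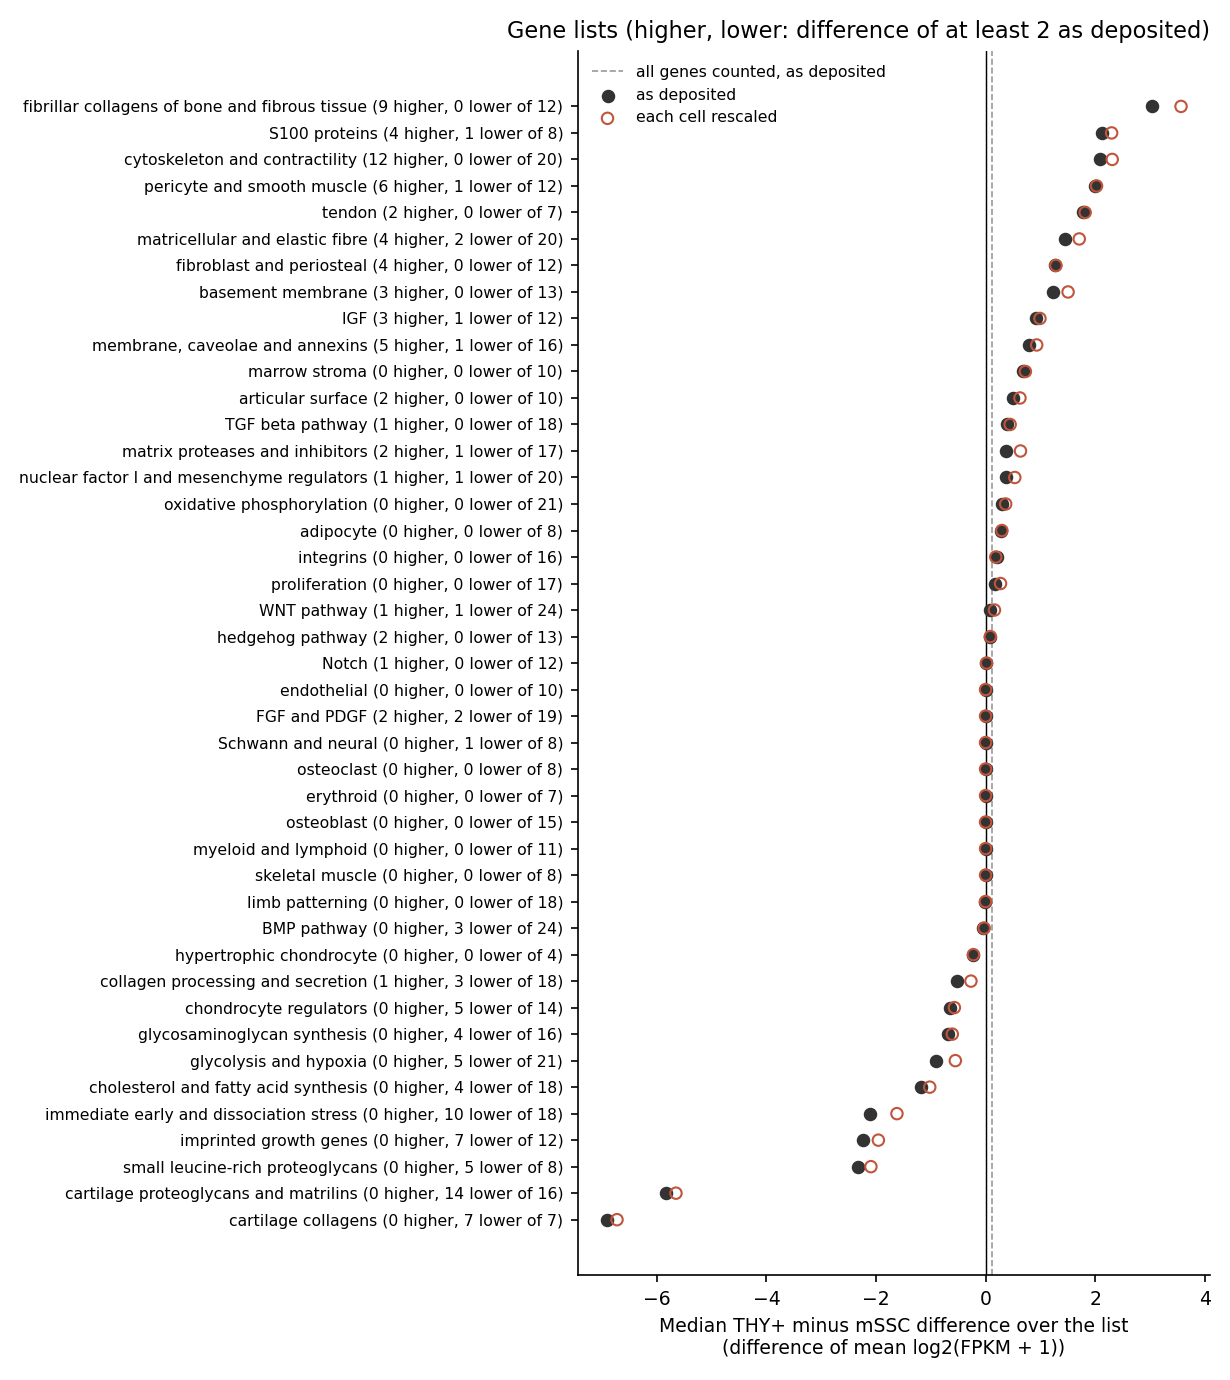
Median THY+ minus mSSC difference in mean log2(FPKM + 1) (x axis) of each gene list (y axis), as deposited (filled) and after each cell was rescaled (open), with the number of genes at least 2 higher or lower of those in the table; the dashed line is the median of all genes counted, 0.12. Cartilage collagens (-6.92) and cartilage proteoglycans (-5.84) lie farthest to the left and fibrillar collagens (3.03) farthest to the right.

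Counted cell by cell, the matrix genes separated most but not all cells. Of 23 cartilage collagen and proteoglycan genes, THY+ cells had 0 to 21 detected (median 6) and mSSC cells 2 to 22 (median 20). Of 24 fibrous collagen and periosteal genes, THY+ cells had 3 to 20 (median 15) and mSSC cells 4 to 16 (median 9). The cartilage genes took a median of 0.103% of endogenous FPKM in THY+ and 10.4% in mSSC, and the fibrous genes 2.87% and 0.286%. At least 17 cartilage genes were found in 4 of 43 THY+ and 33 of 37 mSSC cells, at most 8 in 29 and 4, and 9 to 16 in 10 and 0.

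Col2a1 and Col1a1 were often present in the same cell, and THY+ and mSSC differed in how often both were abundant. Both were detected in 30 THY+ cells, Col1a1 without Col2a1 in 12 and neither in 1, and no THY+ cell had Col2a1 alone. In mSSC both were detected in 20 cells, Col2a1 alone in 15 and Col1a1 alone in 2. At 1000 FPKM or more, 10 THY+ and 2 mSSC cells had both, 2 and 31 Col2a1 alone, 23 and 3 Col1a1 alone, and 8 and 1 neither. Of the 12 THY+ cells with abundant Col2a1, 10 also had abundant Col1a1, and of the other THY+ cells 23 had it and 8 did not. Abundant Col1a1 was thus common in THY+ cells with or without abundant Col2a1. In mSSC, 2 of the 33 cells with abundant Col2a1 had it, and of the other cells 3 had it and 1 did not.

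**Figure D4:**
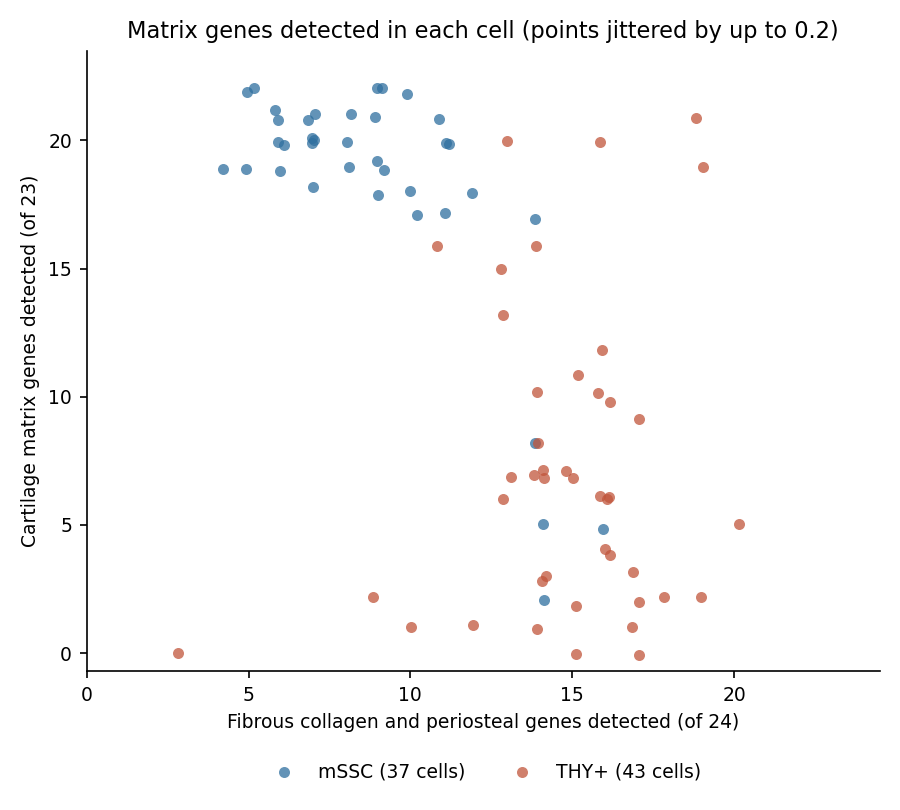
Number of cartilage matrix genes (y axis, of 23) and of fibrous collagen and periosteal genes (x axis, of 24) detected in each of 37 mSSC and 43 THY+ cells, 1 point a cell. Most mSSC cells form a group at 17 to 22 cartilage genes, 4 mSSC cells lie at 8 or fewer among the THY+ cells, and 4 THY+ cells lie at 19 to 21 with 13 to 19 fibrous genes.

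The 4 THY+ cells with at least 17 cartilage genes also held 13 to 19 fibrous genes, Col2a1 at 12866 to 29901 FPKM and Col1a1 at 518.1 to 35974. Their detected genes numbered 2799 to 5786 (THY+ median 2835) and their pericyte transcripts 1 to 11. The cell with 5786 genes was the one with 11 pericyte transcripts. The part of gene number in these counts was not tested. All 4 cells lay in the first THY+ index row, whose 9 cells held 1 to 21 cartilage genes. The 11 cells of the second index row held 0 to 7, and 5 of 7 cells of the third held 9 or more. Just under the limit of 17, the highest cell of the third row and the 1 cell of the seventh held 16. In these cells cartilage genes took 8.10% and 14.3% of endogenous FPKM, beside 2.97% to 11.1% in the 4 cells. Cells rich in cartilage transcripts were thus not confined to the first row. With the first row alone the cartilage collagens had a median difference of -4.28 with 6 of 7 lower, against -7.53 and 7 of 7 in the other THY+ cells, and Col2a1 differed by -4.28 against -8.71. Col1a1 differed by 8.48 and 6.81, so its direction held in both sets.

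The 4 mSSC cells with at most 8 cartilage genes had Col2a1 at 0 to 7.08 FPKM, Col1a1 at 887 to 38184 and 14 to 16 fibrous genes, and 1 of them held 10 pericyte transcripts. Of these cells, 3 were among the 4 cells of the third mSSC index row and 1 lay in the second. Without the third row the cartilage collagens had a median difference of -7.61 and the fibrous collagens of 3.42, against -6.92 and 3.03 with it.

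**Figure D5:**
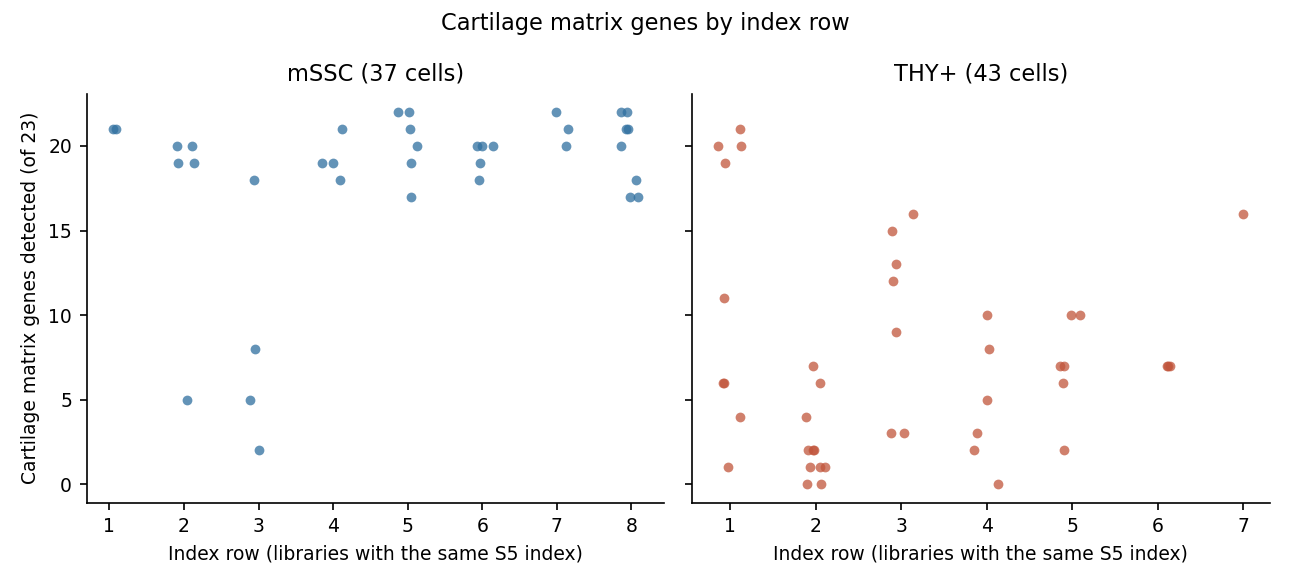
Cartilage matrix genes detected (y axis, of 23) in each cell by index row (x axis, libraries with the same S5 index, numbered within a population; the panels share no index row), 37 mSSC cells left and 43 THY+ cells right. High THY+ cells (17 or more) appear in the first row, with the highest cells of the third and seventh rows at 16. Of the 4 low mSSC cells (8 or fewer), 3 appear in the third row.

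The other populations, under the same minimum of 1000 genes, can be set on the same axes. That minimum kept 11 of 26 CSP and 34 of 92 6C3+ cells. CSP cells lay close to mSSC, and 6C3+ cells between mSSC and THY+ in cartilage genes. CSP libraries carried S5 indices also used for mSSC, and 6C3+ libraries mostly those used for THY+. Likeness between populations therefore cannot be told apart from the index rows. The 11 CSP cells had 8 to 20 cartilage genes (median 19) and 3 to 16 fibrous genes (median 7), and the 34 6C3+ cells 0 to 18 (median 11.5) and 8 to 21 (median 14.5). Median FPKM of Col2a1 was 22906 in CSP and 939 in 6C3+ cells, beside 22488 in mSSC and 7.66 in THY+, and median Col1a1 was 0 and 2663, beside 3.29 and 4966. Col4a1 was detected in 0 of 11 CSP and 17 of 34 6C3+ cells, and Rgs5 in 0 of 11 and 6 of 34. No test of these values was possible, because each population is 1 sample.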

How the data were processed

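The authors deposited 1 FPKM table for all cells, which lists 24388 genes beside 92 spike-ins. Per the submitters' processing notes, the build was mm10 and SAMtools was used. Aligner, FPKM program, gene models and cell filters: not given in the sources used here. Whole reads cannot be recovered from these FPKM values, so depth is unknown. The labels' protocol states that capture sites were imaged and only single live cells were kept; no doublet caller was run.

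Columns were matched to cells by the index names in the labels (0 unmatched, 0 identical, 0 value columns unused). Spike-ins were dropped, cells with at least 1000 genes kept, and genes detected in 10% of the 80 cells counted. No count model, p-value or set test was used. The comparison was run on simulated cells with planted differences. That simulation held no index rows and no spike-ins, so it cannot speak to the separate index rows of the populations. The tools were matplotlib 3.10.9, scipy 1.17.1, pandas 2.3.3 and numpy 2.4.6 under Python 3.11.15. Gene positions come from GENCODE M21 (mm10), promoters from RefSeq (GRCm38.p6), which matched 6517 of the 8142 genes counted. Cnmd and several other genes were found under older symbols (Lect1, Cyr61, Ptrf).

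The named genes were, from those found in 50% or more of cells in whichever population was higher, the 15 highest and 15 lowest differences that kept their sign after rescaling, up to 4 members of each of 46 lists by size of difference, and every transcript of a sort antigen. Unnamed gene models, pseudogenes and ribosomal protein genes were left out of the first step. Other list members named, and the cells singled out by matrix genes, were picked with their values in view. The result of 1 gene that this rule names is not reported here. The comparison, the members and the lists were chosen with earlier results of these data known. Alternatives were other pseudocounts, rescaling, the log2 of the mean, medians, other filters on genes and cells, cells matched on detected genes, index rows, and THY+ cells without at least 6 pericyte transcripts; settings on single index rows, cells rich in pericyte transcripts left out of both populations, and at least 2000 genes with rescaling, were added after seeing the data.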

Additional observations from a re-analysis of the deposited data

How the results depend on the processing

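Counts of genes past the 4-fold rule depended on the scale and on the cells. Against 152 higher and 243 lower of 8142 genes, a pseudocount of 0.1 gave 543 and 448, and a pseudocount of 10 gave 36 and 92. On the same genes the log2 of the mean gave 1039 and 668, and the median 332 and 403. The settings that follow counted other numbers of genes. All 72 THY+ cells gave 21 higher and 831 lower of 7000 genes. Of these, 2 and 63 were at least 50 points more often detected in THY+ and in mSSC, against 22 and 19 of 8142. Cells with at least 2000 genes gave 259 higher of 8387, or 303 with rescaling. Cells matched on detected genes gave 232 higher of 7312 and 37 genes more often detected in mSSC. THY+ cells of the first 2 index rows gave 428 higher and 54 more often detected of 7890, those outside them 480 lower of 7854. The first row alone (9 cells) gave 837 and 116 of 7632, with 152 and 2 by detection. Detection at 10 FPKM gave 9 genes of 6267 more often detected in THY+. The cause of these shifts was not tested. All-cell counts include the 29 THY+ cells under 1000 genes.

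Of 105 named genes past the rule, 99 kept their call after rescaling, 73 with all cells, 73 with the first index row alone, 101 without it, 105 without the third mSSC row and 90 without the 13 THY+ cells rich in pericyte transcripts (91 without the mSSC cell of this kind too). Signs turned for B2m (-0.62) and S100a10 (-0.34) with all cells, for Fkbp10 (0.076) in the first row, and for Higd1b (-0.28) and Rgs5 (-0.21) when only THY+ cells rich in pericyte transcripts were left out, not when such cells left both populations. No paired analysis was possible because cells carry no shared replicate number and no test was run. With 1 sample per population, unknown depth and separate index rows, no difference can be set against variation between animals.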
